A study of Mus musculus with 24 samples.

Results

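Lrrc3b, Kcng1, Pcp4l1 and S100a5 are 4 of the 57010 genes counted in this study, and they were picked from measured values: each had stood higher in the olfactory epithelium of odorant-exposed mice than in that of control mice. The members and the direction of that contrast were therefore known beforehand, so every value of odorant against control below is a description with no test. Differences between exposed groups did not enter the choice directly and were tested. The exposed libraries did enter it, so these tests are not fully independent of the choice. The way the genes moved together within groups did not enter the choice and was tested. All 4 genes passed the filter on low counts in both tables.

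Olfactory sensory neurons detect odorants with receptors in their cilia. Receptor activation raises cAMP through the G protein Gnal and the adenylyl cyclase Adcy3, and cAMP opens a channel that lets calcium in. A neuron that is stimulated often keeps a different set of transcripts from one that is silent, and the 4 genes are known for standing higher in the more active neurons and lower after nostril closure. Lrrc3b encodes a membrane protein with leucine-rich repeats. Kcng1 encodes Kv6.1, a silent potassium channel subunit that forms no channel by itself and modifies the channels that other subunits form. Pcp4l1 encodes a small protein with an IQ motif, related to the calmodulin regulator Pcp4, also called PEP-19. S100a5 encodes a calcium-binding EF-hand protein of the S100 family.

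The mice were wild-type C57BL/6J males of 8 weeks. After 4 h of habituation each group was exposed for 90 min to 10 µL of undiluted odorant on filter paper, or to an empty filter paper as control. In the first table the groups were acetophenone, decanal, their 1:1 mixture (AD mixture) and a no-odor control (AD control). In the second they were octanal, cis-3-hexenol, their 1:1 mixture (OC mixture) and a no-odor control (OC control). Each of the 8 groups had 3 biological replicates, which gives 24 libraries of poly(A) RNA from bulk tissue. The labels name the sets of 4 groups AD and OC conditions, and each set has its own table and control, so levels are compared within a table only.

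Library totals ranged from 19003768 to 24802512 counts. All 15 markers of mature olfactory sensory neurons were above 0 in every library, at a summed level of 18474 to 24797 CPM, the counts scaled to a fixed library total, and the 6 sustentacular cell markers were above 0 as well. Olfactory bulb markers summed to 13.2 to 35.2 CPM, with the inhibitory transporter Slc32a1 at 0 in the OC control and cis-3-hexenol groups. OC control 1 stood apart from OC control 2 and 3 in all 4 genes. For Kcng1 and S100a5 the values over OC control are given with and without it, and for Lrrc3b and Pcp4l1 as ranges with single libraries left out. In bulk tissue fewer neurons and less RNA per neuron cannot be told apart.

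Because the 4 genes were grouped by moving with odorant, their promoters are shown as the 250 bases before the transcription start, from RefSeq on GRCm38.p6. Windows were listed for 3 of the 4 genes: Lrrc3b at chr14:15438988-15439237 on the minus strand, Pcp4l1 at chr1:171196269-171196518 on the minus strand and S100a5 at chr3:90608272-90608521 on the plus strand. Capitals mark a CCAAT box, read here as ATTGG on the strand opposite to the gene.
Lrrc3b: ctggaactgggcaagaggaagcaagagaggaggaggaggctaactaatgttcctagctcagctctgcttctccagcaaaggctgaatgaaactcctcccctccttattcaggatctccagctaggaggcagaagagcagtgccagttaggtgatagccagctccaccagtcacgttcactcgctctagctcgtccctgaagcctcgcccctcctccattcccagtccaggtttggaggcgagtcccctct
Pcp4l1: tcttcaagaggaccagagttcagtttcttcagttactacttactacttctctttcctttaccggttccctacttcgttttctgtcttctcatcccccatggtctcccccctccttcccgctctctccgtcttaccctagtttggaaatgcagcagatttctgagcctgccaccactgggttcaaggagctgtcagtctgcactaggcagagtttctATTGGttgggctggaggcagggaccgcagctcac
S100a5: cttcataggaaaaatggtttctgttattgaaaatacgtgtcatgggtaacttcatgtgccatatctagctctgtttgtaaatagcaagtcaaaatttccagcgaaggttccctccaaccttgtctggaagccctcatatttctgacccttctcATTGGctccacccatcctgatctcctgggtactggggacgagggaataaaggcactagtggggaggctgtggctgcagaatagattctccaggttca
The box lay 34 to 30 bases before the start of Pcp4l1 and 97 to 93 bases before that of S100a5. CCAAT occurred on either strand in 33.8% of the 32851 mouse promoter windows of this length. The other 5 motifs searched, on both strands, were the core promoter motif TATAAA (in 12.4% of windows), the CRE as TGACGTCA (1.55%), the AP-1 site as TGACTCA (4.46%), the NBRE as AAAGGTCA (1.34%) and the EGR site as GCGTGGGCG (0.536%). None of these 5 was in the 3 windows. The 3 windows had a GC content of 56.0% (Lrrc3b), 51.6% (Pcp4l1) and 46.0% (S100a5), and the letters show no binding site by themselves.

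The 4 genes covered a wide range of transcript levels. Per kilobase of the longest transcript (431 bases for S100a5, 1577 for Pcp4l1, 1655 for Lrrc3b and 4089 for Kcng1), the order S100a5, Pcp4l1, Lrrc3b, Kcng1 held in 24 of 24 libraries. The group means were 1468 to 2610.4 CPM per kilobase for S100a5, 788 to 1342 for Pcp4l1, 38.0 to 111 for Lrrc3b and 3.29 to 9.65 for Kcng1. All levels that follow are CPM after TMM scaling.

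**Figure D1:**
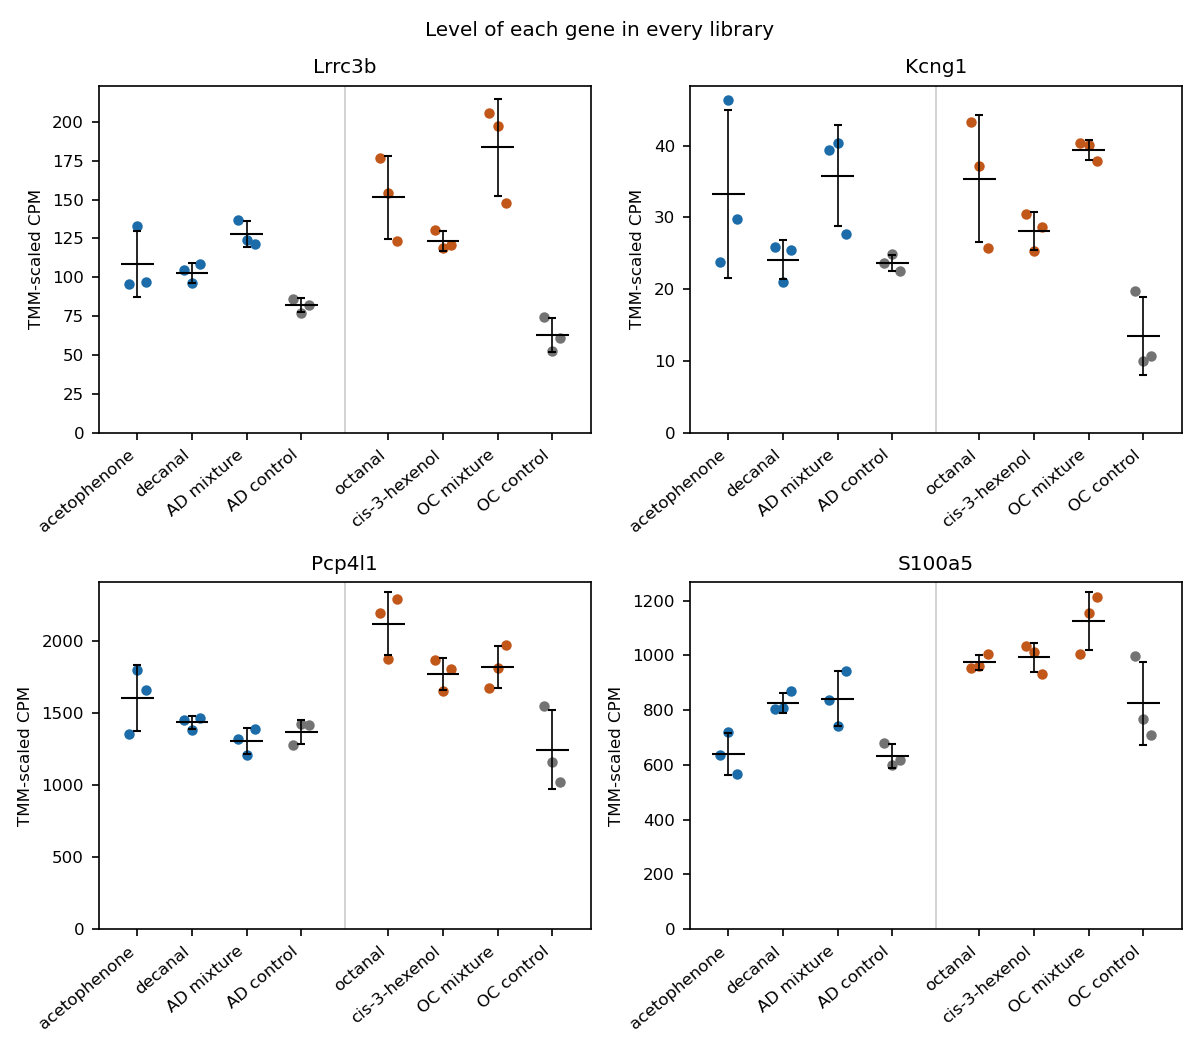
Level of each gene in every library, in TMM-scaled CPM on the vertical axis, by group along the horizontal axis, exposed groups left of the control of their table. Points are mice, long bars the mean and whiskers the SD (n = 3); Lrrc3b has all 9 exposed libraries above its controls in either table.

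Lrrc3b lay above the controls in every exposed library of both tables. In the first table it had 95.9, 133 and 97.0 CPM in acetophenone libraries, 104, 96.0 and 109 CPM in decanal libraries and 137, 124 and 122 CPM in AD mixture libraries, against 86.3, 77.2 and 82.3 CPM in AD control libraries. All 9 exposed libraries lay above the highest control, and acetophenone 2 lay well above the other acetophenone libraries. The log2 fold change over control was 0.41 ± 0.10 with acetophenone, 0.33 ± 0.10 with decanal and 0.64 ± 0.10 with the AD mixture (estimate ± SE from the fit across all genes). Without acetophenone 2 the acetophenone value was 0.24. In the second table it had 177, 154 and 124 CPM in octanal libraries, 130.5, 119 and 121 CPM in cis-3-hexenol libraries and 206, 198 and 148 CPM in OC mixture libraries, against 74.7, 52.7 and 61.1 CPM in OC control libraries. Again all 9 exposed libraries lay above the highest control. The log2 fold change was 1.27 ± 0.14 with octanal, 0.97 ± 0.14 with cis-3-hexenol and 1.55 ± 0.14 with the OC mixture. As single libraries were left out these values ran from 1.16 to 1.43, 0.86 to 1.12 and 1.44 to 1.70. Exons of Lrrc3b overlap those of B230110C06Rik on the opposite strand, which had 52 to 90 counts per library in the first table and 32 to 96 in the second, and whether the counting used strand is not given in the sources used here.

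Kcng1, the silent channel subunit, had the lowest level and the widest range over the libraries of each table. The highest library over the lowest was 2.21 in the first table and 4.35 in the second. Between replicates Kcng1 did not have the widest spread in every group. It had 23.7, 46.4 and 29.8 CPM in acetophenone libraries, 25.9, 21.0 and 25.5 CPM in decanal libraries and 39.4, 40.3 and 27.7 CPM in AD mixture libraries, against 23.6, 24.9 and 22.5 CPM in AD control libraries. The AD mixture libraries all lay above the controls, whereas decanal and acetophenone libraries overlapped them. Its log2 fold change over control was 0.49 ± 0.19 with acetophenone, 0.03 ± 0.19 with decanal and 0.60 ± 0.19 with the AD mixture. The acetophenone value ranged from 0.18, without acetophenone 2, to 0.69 as single libraries were left out. The decanal value then ranged from -0.05 to 0.10 and lay under 0 without AD control 3, decanal 1 or decanal 3. Kcng1 in the second table had 43.3, 37.2 and 25.8 CPM in octanal libraries, 30.5, 25.3 and 28.6 CPM in cis-3-hexenol libraries and 40.3, 40.1 and 37.8 CPM in OC mixture libraries, against 19.8, 9.93 and 10.7 CPM in OC control libraries. The 9 exposed libraries lay above all 3 controls, and OC control 1 lay well above the other OC control libraries. Its log2 fold change was 1.38 ± 0.21 with octanal, 1.05 ± 0.21 with cis-3-hexenol and 1.54 ± 0.21 with the OC mixture. Without OC control 1 these values were 1.79, 1.45 and 1.94.

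Pcp4l1, the PEP-19 relative, differed between the tables. It had 1354, 1799 and 1654 CPM in acetophenone libraries, 1452, 1383 and 1464 CPM in decanal libraries and 1317, 1205 and 1386 CPM in AD mixture libraries, against 1272, 1418 and 1416 CPM in AD control libraries. Each exposed group overlapped the controls, and 4 of the 9 exposed libraries lay above the highest of them. Over control, the log2 fold change was 0.23 ± 0.08 with acetophenone, 0.07 ± 0.08 with decanal and -0.07 ± 0.08 with the AD mixture, the lowest of the 24 member values and the only 1 of them under 0. Without acetophenone 2 the acetophenone value was 0.14. Pcp4l1 in the second table had 2188, 1871.5 and 2289 CPM in octanal libraries, 1864, 1648 and 1800.1 CPM in cis-3-hexenol libraries and 1672, 1808 and 1967 CPM in OC mixture libraries, against 1549, 1158 and 1021 CPM in OC control libraries. All 9 exposed libraries lay above the highest control. Over control, these were log2 fold changes of 0.77 ± 0.12 with octanal, 0.51 ± 0.12 with cis-3-hexenol and 0.55 ± 0.12 with the OC mixture. With single libraries left out they ran from 0.65 to 0.97, 0.40 to 0.71 and 0.43 to 0.75.

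S100a5, the calcium-binding member, has the shortest transcript of the members. It had 636, 719.8 and 566 CPM in acetophenone libraries, 804, 806 and 869 CPM in decanal libraries and 838, 743 and 943 CPM in AD mixture libraries, against 681, 599 and 618 CPM in AD control libraries. Decanal and AD mixture libraries all lay above the controls, and acetophenone libraries spanned them. The log2 fold change over control was 0.02 ± 0.09 with acetophenone, 0.39 ± 0.09 with decanal and 0.41 ± 0.09 with the AD mixture. With single libraries left out the acetophenone value ran from -0.07 to 0.09 and lay under 0 without AD control 2 or acetophenone 2. S100a5 in the second table had 955, 962 and 1004 CPM in octanal libraries, 1034, 1012 and 931 CPM in cis-3-hexenol libraries and 1006, 1154 and 1215 CPM in OC mixture libraries, against 996, 768 and 710.1 CPM in OC control libraries. OC control 1 lay within the range of the octanal and cis-3-hexenol libraries, and the OC mixture libraries lay above all 3 controls. The log2 fold change was 0.24 ± 0.11 with octanal, 0.27 ± 0.11 with cis-3-hexenol and 0.45 ± 0.11 with the OC mixture. Without OC control 1 these values were 0.41, 0.43 and 0.62, and without OC control 3 the octanal value was 0.14.

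**Figure D2:**
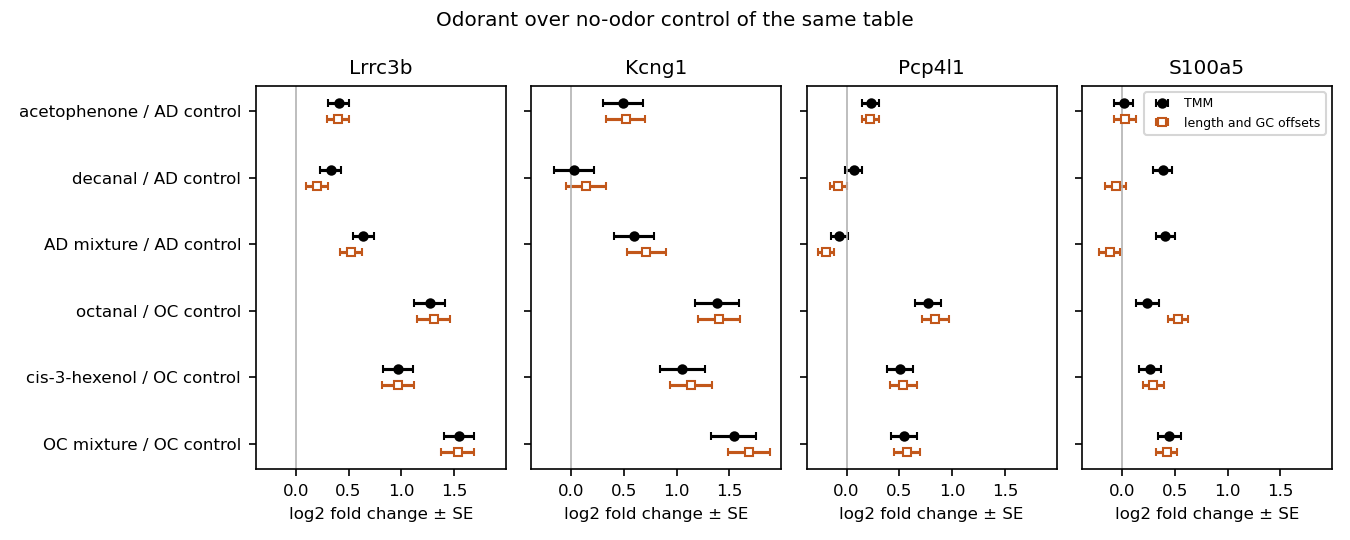
Log2 fold change ± SE of each gene over the no-odor control of its table (horizontal axis) for the 6 exposed groups (rows), with TMM scaling (filled) and with length and GC offsets (open). With TMM scaling 23 of the 24 values lie above 0, and with the offsets 20 of 24 do; the S100a5 values with decanal and the AD mixture move to the other side of 0.

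The fold changes of all genes varied with transcript length in some comparisons, which bears on the short S100a5 transcript. Across genes, the Spearman correlation of the log2 fold change over control with transcript length was -0.32 for decanal and -0.30 for the AD mixture. It was -0.07 for acetophenone, 0.04 for octanal, -0.08 for cis-3-hexenol and -0.12 for the OC mixture. Offsets that remove the smooth trend with length and GC content in each library took the S100a5 log2 fold change to -0.06 with decanal and -0.12 with the AD mixture. They took it to 0.53 with octanal, 0.29 with cis-3-hexenol and 0.42 with the OC mixture, and left it at 0.03 with acetophenone. After the offsets S100a5 had 649 to 757 CPM with decanal and 626 to 760.0 CPM with the AD mixture, within or below the 709.5 to 807 CPM of AD control libraries. In the second table it then had 1110.3 to 1157 CPM with octanal, 932 to 975 CPM with cis-3-hexenol and 976 to 1169.8 CPM with the OC mixture, all above the 669.7 to 925 CPM of OC control libraries. Lrrc3b kept a log2 fold change of 0.20 with decanal and 0.52 with the AD mixture, and Kcng1 had 0.14 and 0.71, while Pcp4l1 had -0.08 and -0.19, with its corrected AD mixture libraries below all 3 controls.

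**Figure D3:**
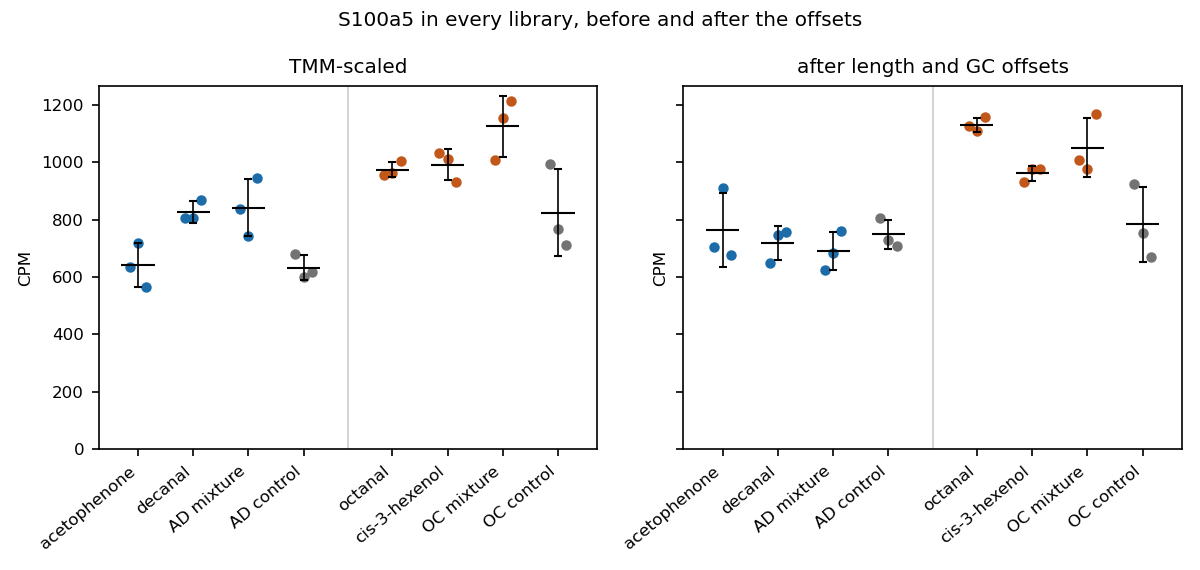
S100a5 in every library, in CPM on the vertical axis by group, with TMM scaling (left) and after length and GC offsets (right); points are mice, long bars the mean and whiskers the SD (n = 3). The decanal and AD mixture libraries stand above AD control on the left only, while on the right all 9 exposed libraries of the second table stand above OC control.

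Of the 4 members, the number whose exposed libraries all lay above the control libraries was 1 with acetophenone, where 8.17% of all genes tested did the same. It was 2 with decanal (20.7% of all genes) and 3 with the AD mixture (18.6%). In the second table it was 3 with octanal (19.7%), 3 with cis-3-hexenol (15.1%) and 4 with the OC mixture (16.6%). The members were chosen on these comparisons, so nothing is read from these counts. The 3 comparisons of a table share their control libraries.

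Markers of other cells and tissue moved with the same groups. The 5 red cell markers, none at 0, summed to 228 to 624 CPM with acetophenone, 2135 to 2568 CPM with decanal and 1788 to 2532 CPM with the AD mixture, against 492 to 646 CPM in AD control libraries. They summed to 745 to 1119 CPM with octanal, 1288 to 1936 CPM with cis-3-hexenol and 843 to 1816 CPM with the OC mixture, against 2153 to 4462 CPM in OC control libraries, where OC control 1 was the highest. The 5 bone markers, none at 0, summed to 1608 to 2240 CPM with decanal and 1851 to 2966 CPM with the AD mixture, against 1144 to 1348 CPM in AD control libraries. With octanal they summed to 973 to 1131 CPM, against 1920 to 3056 CPM in OC control libraries.

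Of the 7 neutrophil and marrow markers, none at 0, 6 were called higher with decanal and 6 with the AD mixture, at a median log2 fold change of 2.20 and 2.80, and the offsets gave 6 in both as well. Their sums overlapped, at 281 to 428 CPM with decanal and 306 to 445 CPM with the AD mixture, against 189, 164 and 611 CPM in AD control libraries, where AD control 3 stood apart. Against OC control, 6 were called lower with octanal (median -1.80), 0 with cis-3-hexenol (-0.55) and 5 with the OC mixture (-0.72). The sums there were 152 to 254 CPM with octanal, 186 to 278 CPM with cis-3-hexenol and 161 to 258 CPM with the OC mixture, against 268 to 429 CPM in OC control libraries. The 6 sustentacular markers, of the supporting cells of the epithelium, summed to 10456 to 11019 CPM with acetophenone, 8296 to 8753 CPM with decanal and 7928 to 8583 CPM with the AD mixture, against 9396 to 9684 CPM in AD control libraries. No group overlapped the control, and 1 of the 6 was called higher and 3 lower with decanal and with the AD mixture, and 0 with acetophenone. In the second table they summed to 9465 to 10148 CPM with octanal, 8320 to 8726 CPM with cis-3-hexenol and 8744 to 9567 CPM with the OC mixture, against 6358 to 8355 CPM in OC control libraries. There 4 were called higher and 1 lower with octanal, 1 and 1 with cis-3-hexenol and 4 and 1 with the OC mixture (edgeR, adjusted p under 0.05). The part of these marker lists in the values of the 4 genes was not tested.

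The level of neuronal transcripts moved too. Of the 15 mature neuron markers, 9 passed the test as lower and 1 as higher with decanal, and 11 as lower and 1 as higher with the AD mixture. Among the second set of groups, 8 were higher and 2 lower with octanal, 7 higher and 1 lower with cis-3-hexenol, and 9 higher and 1 lower with the OC mixture; no marker passed with acetophenone (edgeR, adjusted p under 0.05). Omp, which encodes the olfactory marker protein, averaged 9542 ± 242 CPM with octanal, 10513 ± 448 CPM with cis-3-hexenol and 10481 ± 510.0 CPM with the OC mixture, against 13073 ± 727 CPM in OC control libraries (SD, n = 3 each), lower in all 3 exposed groups while most markers of its list that passed were higher. Set against the mean log2 level of the 15 markers, Lrrc3b differed from control by 0.35 with acetophenone, 0.55 with decanal, 0.90 with the AD mixture, 1.02 with octanal, 0.81 with cis-3-hexenol and 1.30 with the OC mixture, without overlap of the libraries in any of the 6. Set against Omp alone, Lrrc3b with decanal differed by 0.20 and overlapped AD control, while the other 5 values, 0.37 to 1.87, were without overlap. Kcng1 set against the 15 markers differed by 0.84 with the AD mixture, 0.95 with cis-3-hexenol and 1.38 with the OC mixture without overlap, and by 0.39 with acetophenone, 0.24 with decanal and 1.18 with octanal with overlap. Against Omp alone Kcng1 overlapped AD control in each group, at 0.42 with acetophenone, -0.11 with decanal and 0.54 with the AD mixture. Its values against Omp over OC control were 1.89 with octanal, 1.44 with cis-3-hexenol and 1.94 with the OC mixture, without overlap. Pcp4l1 set against them overlapped OC control in all 3 groups, at 0.54 with octanal, 0.35 with cis-3-hexenol and 0.32 with the OC mixture. Against Omp its values there were 1.24, 0.84 and 0.88, without overlap. In the first table Pcp4l1 set against the 15 markers differed by 0.28 with decanal without overlap. With overlap it differed by 0.18 with acetophenone and 0.19 with the AD mixture. Against Omp it overlapped AD control in each group, at 0.20 with acetophenone, -0.06 with decanal and -0.11 with the AD mixture. S100a5 set against the 15 markers differed from OC control by 0.01 with octanal, 0.10 with cis-3-hexenol and 0.22 with the OC mixture, with overlapping libraries. Set against Omp alone, S100a5 differed from OC control by 0.71, 0.59 and 0.78 for the same 3 groups, with no overlap. From AD control it differed, set against the 15 markers, by 0.60 with decanal and 0.67 with the AD mixture without overlap. With acetophenone that value was -0.03, with overlap. Against Omp alone S100a5 had 0.37 with the AD mixture without overlap, and 0.26 with decanal and -0.01 with acetophenone with overlap. These ratios were added after the levels had been seen, and the part of the neuronal markers in the values of the 4 genes was not tested.

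Between exposed groups, 3 of the 24 member values passed the test (edgeR quasi-likelihood test, Benjamini-Hochberg adjustment over all genes of the table, threshold 0.05). All 3 involved acetophenone, but no gene at all passed in the comparisons without it. Of all genes tested, 27% passed between decanal and acetophenone and 25.3% between the AD mixture and acetophenone. The choice of genes used the same exposed libraries against control, so these p-values are not fully independent of it. S100a5 was higher with decanal than with acetophenone, at 826 ± 37.2 CPM with decanal and 641 ± 77.1 CPM with acetophenone (SD, n = 3 each). That is a log2 fold change of 0.37 (95% interval 0.18 to 0.56, edgeR adjusted p = 0.0068), and with the length and GC offsets it is -0.09 (adjusted p = 0.581). S100a5 was also higher with the AD mixture, at 842 ± 100.3 CPM, than with acetophenone, by a log2 fold change of 0.39 (0.20 to 0.59, edgeR adjusted p = 0.0047). With the offsets that value was -0.15 (adjusted p = 0.353), so neither S100a5 call held under them. Pcp4l1 was lower with the AD mixture than with acetophenone, at 1303 ± 91.2 CPM with the AD mixture and 1602 ± 227 CPM with acetophenone. Its log2 fold change was -0.30 (-0.47 to -0.12, edgeR adjusted p = 0.0139), and -0.42 with the offsets (adjusted p = 0.0016). Without acetophenone 2 it was -0.22 and no longer passed (adjusted p = 0.0611). Red cell and neutrophil markers summed to more, and sustentacular markers to less, with decanal and the AD mixture than with acetophenone, as given above, and their part in these differences was not tested.

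The remaining values of the first table did not pass. Pcp4l1 differed by -0.16 between decanal and acetophenone (-0.33 to 0.01, edgeR adjusted p = 0.161), and with the offsets by -0.30, which passed (adjusted p = 0.0121). Kcng1 differed by -0.47 in that comparison (-0.87 to -0.06, edgeR adjusted p = 0.0850), and Lrrc3b by -0.07 (-0.29 to 0.14, adjusted p = 0.620). For the AD mixture against acetophenone, Lrrc3b differed by 0.23 (0.02 to 0.44, edgeR adjusted p = 0.0973) and Kcng1 by 0.10 (-0.30 to 0.51, adjusted p = 0.734). Of the 4 members 1 passed between decanal and acetophenone, where 27% of all genes tested did, and 2 passed between the AD mixture and acetophenone, where 25.3% did.

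No gene passed in edgeR in the other 4 comparisons, so 0% of genes and 0 of the 4 members were called there. DESeq2 called 2 genes between the AD mixture and decanal, 236 between cis-3-hexenol and octanal, 263 between the OC mixture and octanal and 14 between the OC mixture and cis-3-hexenol, with none of the 4 members among them. At an unadjusted p under 0.05 edgeR had 1090, 2496, 2447 and 1187 genes in those 4 comparisons. The members at that level were Lrrc3b and Kcng1 in 2 comparisons, each of a mixture with a component. In the AD mixture Lrrc3b stood above decanal by 0.31 (0.10 to 0.52, edgeR adjusted p = 0.887) and Kcng1 by 0.57 (0.16 to 0.98, adjusted p = 0.887). In the OC mixture Lrrc3b stood above cis-3-hexenol by 0.58 (0.28 to 0.88, edgeR adjusted p = 0.390) and Kcng1 by 0.49 (0.06 to 0.92, adjusted p = 0.753). The libraries of both genes did not overlap in either comparison, where 4.88% and 6.22% of all genes stood higher without overlap. Without the filter on low counts, both genes passed in both comparisons, where 0.41% and 0.573% of the genes with any count did. Leaving out the filter changes the estimate of the spread and the number of genes, 33152 and 32820 against 19525 and 19175 with it. The added genes have low counts, so these shares are not like those of the filtered fit, and nothing is read from these calls. In the fit without the filter 3 of the 4 members passed between decanal and acetophenone (17% of genes), 3 between the AD mixture and acetophenone (15.8%), 2 between cis-3-hexenol and octanal (1.77%) and 1 between the OC mixture and octanal (1.44%). The OC mixture differed from octanal by 0.28 for Lrrc3b (-0.02 to 0.58, edgeR adjusted p = 0.420) and by 0.16 for Kcng1 (-0.27 to 0.58, adjusted p = 0.799). Between cis-3-hexenol and octanal, Lrrc3b differed by -0.30 (-0.60 to 0.00, edgeR adjusted p = 0.390), Kcng1 by -0.33 (-0.76 to 0.10, adjusted p = 0.514) and Pcp4l1 by -0.26 (-0.52 to 0.00, adjusted p = 0.393). S100a5 differed by 0.21 between the OC mixture and octanal (-0.02 to 0.44, edgeR adjusted p = 0.432) and by 0.18 between the OC mixture and cis-3-hexenol (-0.05 to 0.41, adjusted p = 0.867). The remaining values of these 4 comparisons were -0.14 and -0.22 for Pcp4l1 in the AD mixture against decanal and in the OC mixture against octanal, and at most 0.04 in size for the others.

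**Figure D4:**
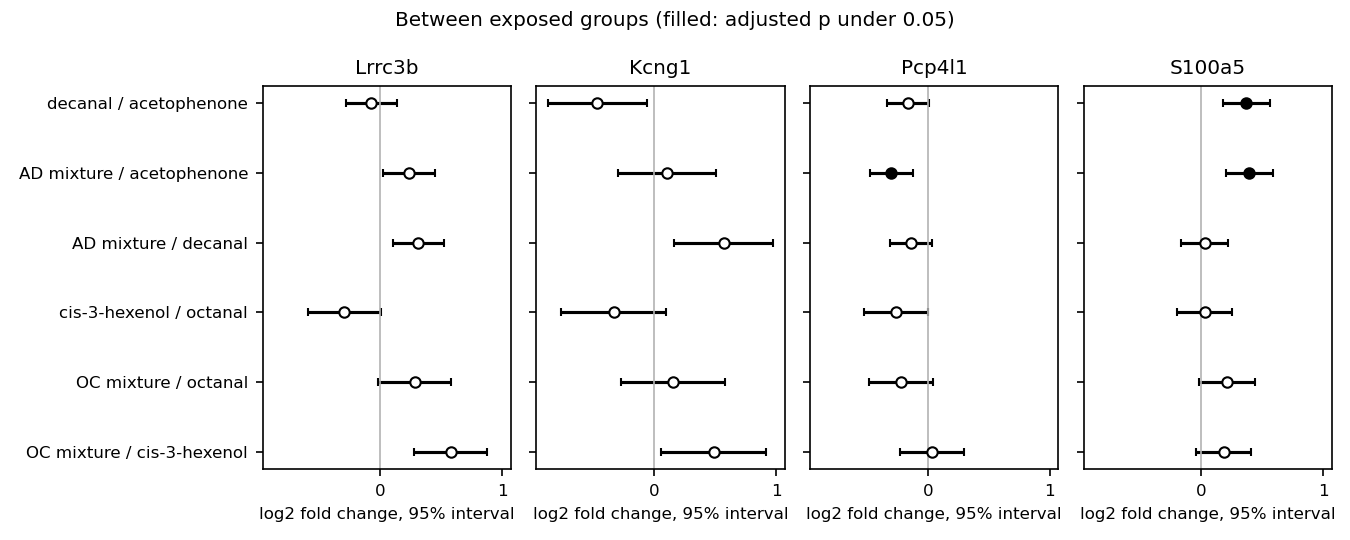
Log2 fold change with its 95% interval (horizontal axis) of each gene between exposed groups (rows, group on top of the fold change named first), filled where the edgeR adjusted p was under 0.05. The 3 filled points are S100a5 for decanal and for the AD mixture over acetophenone, and Pcp4l1 for the AD mixture over acetophenone.

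In the order of group means, the mixture was highest for Lrrc3b and Kcng1 in both tables, and neighbouring exposed groups overlapped in most cases. Lrrc3b averaged 128 ± 8.23 CPM with the AD mixture, 109 ± 21.0 CPM with acetophenone and 103 ± 6.43 CPM with decanal, against 81.9 ± 4.57 CPM in AD control libraries (SD, n = 3 each). Kcng1 averaged 39.4 ± 1.39 CPM with the OC mixture, 35.4 ± 8.86 CPM with octanal and 28.1 ± 2.62 CPM with cis-3-hexenol, against 13.5 ± 5.47 CPM in OC control libraries. Pcp4l1 was highest with acetophenone in the first table and with octanal (2116 ± 218 CPM) in the second. The step that separated exposed from control libraries without overlap lay between the lowest exposed group and the control for Lrrc3b in both tables, and for Kcng1 and Pcp4l1 in the second table. For S100a5 the mixture was also highest in both tables with TMM scaling, but not with the length and GC offsets. With these the AD mixture was lowest of its table (690.3 CPM, with 764 for acetophenone, 717 for decanal and 748 for AD control), and octanal (1131 CPM) stood above the OC mixture (1051 CPM). With TMM scaling the S100a5 libraries of decanal stood above those of acetophenone without overlap, and with the offsets they overlapped.

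Once the mean of each group was taken out, Lrrc3b and Kcng1 moved together from mouse to mouse. Over the 24 libraries their deviations had a Pearson r of 0.81 (adjusted permutation p = 0.00072, two-sided, shuffled within groups, adjusted over the 6 pairs of genes) and a Spearman rho of 0.77 (adjusted permutation p = 0.0016). The r was 0.82 within each table, and 0.83 without OC mixture 3 and acetophenone 2, the libraries farthest from the median of Lrrc3b. With every library of a replicate number left out, r was 0.72 to 0.93 over 16 libraries, and the adjusted permutation p was 0.147, 0.0950 and 0.142. So few libraries per group leave few distinct shuffles, and this p cannot fall far under the threshold, so nothing is read from it. Pcp4l1 and S100a5 had an r of 0.64 (permutation p = 0.0391, adjusted p = 0.117) and a rho of 0.56 (adjusted permutation p = 0.103), which did not pass. Their r was 0.31 in the first table and 0.85 in the second, and 0.40 without OC control 1 and 3. The other 4 pairs had r between 0.25 and 0.52, and none passed. The libraries share the depth and tissue composition of each mouse, and the part of these in the correlation was not tested.

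**Figure D5:**
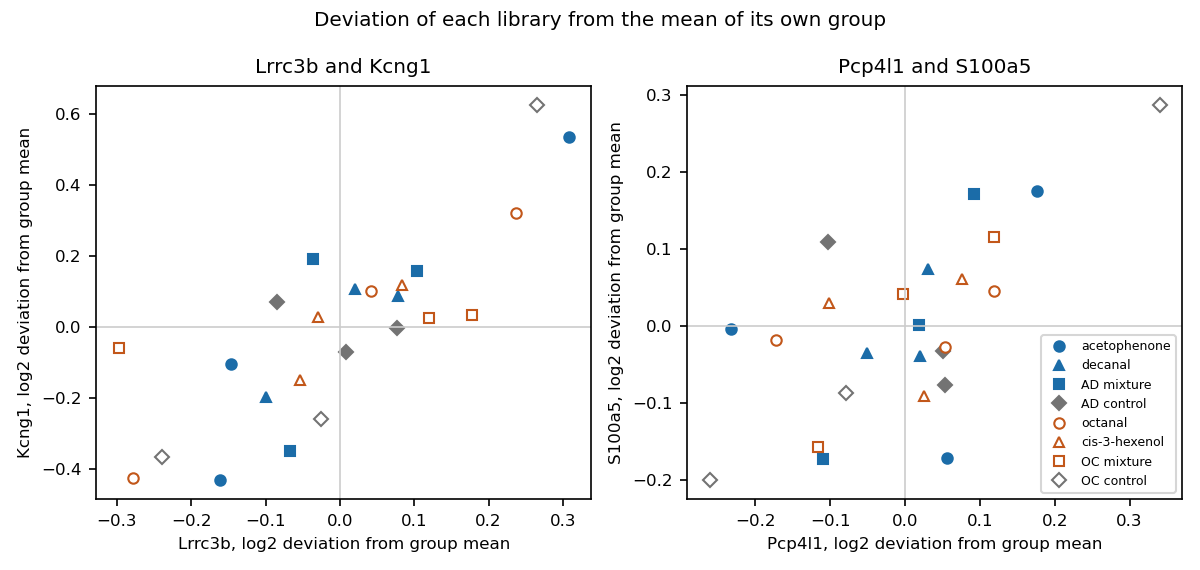
Log2 deviation of each library from the mean of its group, for Lrrc3b and Kcng1 (left) and for Pcp4l1 and S100a5 (right); symbols mark the 8 groups. Pearson r is 0.81 on the left, and on the right, where OC control 1 is the point at the upper end, it is 0.64.

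The genes whose levels ran closest to each member were taken from 14488 genes by Pearson r over the 24 libraries, after centring on the mean of each table, and are given as a description. For Lrrc3b they were Tsc22d1, a transcriptional regulator (r = 0.94), Kcng1 (0.94) and Pcdh10, a protocadherin of cell adhesion (0.92). For Kcng1 they were Lrrc3b (0.94), Sema7a, a membrane-anchored semaphorin (0.91), and Kcnmb3, a regulatory subunit of calcium-activated potassium channels (0.90). For Pcp4l1 they were Ubl3, a membrane-anchored ubiquitin-like protein (0.86), Tmtc4 (0.85) and Gtf2h3, a subunit of a general transcription factor (0.84). Of the 3 for S100a5, 2 were Mrpl42 of the mitochondrial ribosome (0.88) and the nucleosome-binding Hmgn2 (0.86). Kcng1 thus stood at rank 2 for Lrrc3b and Lrrc3b at rank 1 for Kcng1, while S100a5 stood at rank 3136 for Pcp4l1 (r = 0.40). All 24 libraries carry the odorant contrast and the tissue composition, which enter each r.

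Genes known to track neuron activity were examined beside the members, namely Kirrel2, Pcdh10, Sema7a and Cntn4, which encode cell-surface adhesion or guidance proteins. This list and the other gene lists were chosen with earlier results of these data known, so calls in them are no independent support. Pcdh10 and Sema7a are also among the genes closest to Lrrc3b and to Kcng1, in that order, in these same libraries. The percentages of all genes that passed as higher and as lower were 0.00512% and 0% with acetophenone, 11.4% and 12.5% with decanal, 10.6% and 11.6% with the AD mixture, 14.4% and 15% with octanal, 5.56% and 6.65% with cis-3-hexenol, and 11.5% and 12.7% with the OC mixture. Of the 4 genes, 0 passed with acetophenone, 1 was higher with decanal, 1 with the AD mixture, 2 with octanal, 2 with cis-3-hexenol and 3 with the OC mixture, and none was lower. Pcdh10 rose with decanal (0.64, edgeR adjusted p = 0.0287), the AD mixture (0.92, adjusted p = 0.0033), octanal (1.12, adjusted p = 0.0056), cis-3-hexenol (0.93, adjusted p = 0.0360) and the OC mixture (1.54, adjusted p = 0.00093). Sema7a rose with octanal by 1.13, with cis-3-hexenol by 0.86 and with the OC mixture by 1.06. Kirrel2 did not pass, with 0.58 for octanal (edgeR adjusted p = 0.0925) and 0.45 for the AD mixture (adjusted p = 0.100). Cntn4 had 0.02 with octanal and 0.23 with cis-3-hexenol, and passed with the OC mixture at 0.27 (edgeR adjusted p = 0.0194). With the length and GC offsets that last value was 0.17 and did not pass (edgeR adjusted p = 0.0920). The median log2 fold change of the 4 was 0.85 with octanal, 0.55 with cis-3-hexenol and 0.66 with the OC mixture, against -0.02, -0.01 and -0.01 over all genes.

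Early response genes, which switch on within minutes of stimulation, were mixed with TMM scaling. Of 21 genes, 7 rose and 2 fell with octanal, 2 rose and 2 fell with cis-3-hexenol, 5 rose and 2 fell with the OC mixture, and 1 rose and 2 fell with decanal. With the AD mixture 5 passed as higher and 1 as lower, and 0 passed with acetophenone. Most of the lower calls were lost with the length and GC offsets. These gave 7 higher and 0 lower with octanal, 1 and 0 with cis-3-hexenol, and 5 and 1 with the OC mixture. For decanal they gave 0 higher and 1 lower, and for the AD mixture 5 and 0. The transcription factor Fosb rose with octanal (3.17, edgeR adjusted p = 0.00076) and the OC mixture (2.79, adjusted p = 0.0023), and the nuclear receptor Nr4a1 rose with octanal by 1.99 and with the OC mixture by 1.62. Fosb was near the floor, at a mean of 0.31 CPM in OC control, 2.97 CPM with octanal and 2.28 CPM with the OC mixture. With the AD mixture Fosb rose by 1.32 and Nr4a1 by 0.92, while the synaptic gene Arc changed by -0.50. The median was 0.28 with octanal, 0.09 with cis-3-hexenol and 0.23 with the OC mixture.

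The relatives of the members gave different pictures. Of 12 other S100 genes, 9 were higher with decanal, 9 with the AD mixture and 0 with acetophenone, none lower. With octanal 1 was higher and 5 lower, with the OC mixture 1 and 3, and with cis-3-hexenol 0 and 0. With the offsets 2 of 12 were called higher with decanal (7.67% of all genes) and 3 with the AD mixture (7.54%), among them S100a8 and S100a9, which are neutrophil genes and also stand in the neutrophil and marrow list given above. Of the 11 calmodulin-related genes, 1 was higher and 2 lower with octanal, 1 and 0 with cis-3-hexenol, 1 and 0 with the OC mixture, 2 and 2 with decanal and 3 and 1 with the AD mixture, with 0 for acetophenone. The kinase gene Camk2d rose with octanal (0.42), cis-3-hexenol (0.28) and the OC mixture (0.32), and had -0.37 with decanal and -0.33 with the AD mixture. Of the 2 Lrrc3 relatives, Lrrc3 and Lrrc3c, 0 passed in any of the 6 comparisons.

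The genes of a list built around cAMP-driven calcium entry were mostly higher where they passed in the second table and lower where they passed in the first. The list is broader than calcium entry, since it includes the transcription coactivator Crtc2, so its counts are not those of the entry pathway alone. Of 15 genes, 7 rose and 2 fell with octanal, 6 rose and 1 fell with cis-3-hexenol and 6 rose and 2 fell with the OC mixture. None was higher with decanal or the AD mixture, where 6 and 10 passed as lower, and 0 passed with acetophenone. Adcy3, the adenylyl cyclase, had 0.57 with octanal and -0.51 with the AD mixture, and the phosphodiesterase Pde1c had 0.68 and -0.63. Of the 15 genes, 7 are also in the mature neuron list. The 2 tables have controls of their own, and the difference between the tables was not tested.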

How the data were processed

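Olfactory epithelium of 24 mice was measured by poly(A) RNA-seq (stranded mRNA libraries from the supernatant of a detergent homogenate, per the labels' protocols). The deposited values are estimated counts per gene, 1 table per set of 12 libraries, for 57010 Ensembl gene IDs each. The submitters' processing notes name STAR 2.7.10b, Salmon 1.10.1, R 4.4.2 and GRCm39, with no role for each. Of the counts, 12.8% in the first table and 12.6% in the second were not whole, and all were rounded for the tests. IDs with no symbol held 0.313% and 0.321% of the counts and were kept in the fits; library sizes were summed over the genes left by the filter.

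Each table was fitted by itself in edgeR 4.0.16 (R 4.3.3, limma 3.58.1): TMM scaling, filterByExpr (19525 and 19175 genes left), a quasi-likelihood fit with 1 mean per group, and Benjamini-Hochberg adjustment over all genes of the table, called at 0.05. Length and GC offsets were smooth curves fitted per library on GENCODE M21 transcripts. DESeq2 1.42.0, other scalings and filters, single libraries left out, a replicate term and fits on 6 libraries were alternatives. Library totals were 19003768 to 24802512 counts. Correlations within groups were taken on log2 CPM, with 100000 permutations, and the genes closest to each member were ranked on log2(CPM + 0.5). The genes named are the 4 members, genes of the lists described and the 3 genes closest to each member. Some of these genes and 1 list are not reported here. Members and lists were chosen with earlier results of these data known. The only coordinates given are those of the promoter windows, on GRCm38.p6; the files use GRCm39, and no coordinates were carried between the builds.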

Additional observations from a re-analysis of the deposited data

How the results depend on the processing

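Of 336 recomputed values of odorant against control, 320 stayed within the spread between replicates and 16 moved; of 336 between exposed groups, 302 kept direction and side of the threshold; causes were not tested except where stated. Log2 fold changes are given, first with the length and GC offsets and then with offsets plus replicate term. With decanal over control these were 0.20 and 0.20 for Lrrc3b, -0.078 and -0.075 for Pcp4l1, and -0.061 and -0.067 for S100a5. With the AD mixture over control they were 0.52 and 0.52, -0.19 and -0.19, and -0.12 and -0.12 for the same genes. S100a5 with octanal over control had 0.53 and 0.53. S100a5 turned sign between decanal and acetophenone (-0.091 and -0.087), the AD mixture and acetophenone (-0.15 and -0.14), the AD mixture and decanal (-0.055 and -0.054), cis-3-hexenol and octanal (-0.23 and -0.23) and the OC mixture and octanal (-0.11 and -0.11). Pcp4l1 between decanal and acetophenone passed (-0.30 and -0.30). Without the low-count filter, which changes the number of genes fitted and the estimate of the spread, these passed (shares of all genes as given above): Kcng1 (-0.47) and Pcp4l1 (-0.17) between decanal and acetophenone, Lrrc3b (0.23) between the AD mixture and acetophenone, Lrrc3b (0.31) and Kcng1 (0.57) between the AD mixture and decanal, Lrrc3b (-0.31) and Kcng1 (-0.34) between cis-3-hexenol and octanal, Lrrc3b (0.27) between the OC mixture and octanal, and Lrrc3b (0.58) and Kcng1 (0.49) between the OC mixture and cis-3-hexenol. With only the 6 libraries compared, Pcp4l1 passed between cis-3-hexenol and octanal (-0.26, adjusted p = 0.0378).

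With single libraries left out, decanal against acetophenone gave -0.66 to -0.16 for Kcng1 and -0.27 to -0.078 for Pcp4l1, both passing without acetophenone 1, and -0.16 to 0.088 for Lrrc3b, which turned sign without acetophenone 2. The AD mixture against acetophenone gave -0.090 to 0.41 for Kcng1, 0.15 to 0.39 for Lrrc3b, which passed without acetophenone 2, and -0.41 to -0.22 for Pcp4l1. S100a5 gave -0.057 to 0.11 between the AD mixture and decanal and -0.0046 to 0.070 between cis-3-hexenol and octanal. Kcng1 gave -0.028 to 0.32 between the OC mixture and octanal, and Pcp4l1 -0.025 to 0.091 between the OC mixture and cis-3-hexenol. Kcng1 over control gave 0.88 to 1.45 with cis-3-hexenol and 1.36 to 1.94 with the OC mixture, the highest values without OC control 1. Correlations within groups, with a replicate number left out, ran from 0.72 to 0.93 for Lrrc3b and Kcng1, -0.34 to 0.87 for Lrrc3b and Pcp4l1, -0.045 to 0.78 for Lrrc3b and S100a5, -0.34 to 0.92 for Kcng1 and Pcp4l1 and -0.021 to 0.69 for Kcng1 and S100a5.

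Replicate numbers did not pair the mice: deviations of same-numbered libraries correlated at -0.27 to 0.32 across genes, and in no comparison were all 3 above 0.1. A replicate block changed no call of a member by itself, and gave r = 0.75 (adjusted permutation p = 0.0181) for Lrrc3b and Kcng1. No alternative planned was left out. With 3 mice a group, differences under the intervals given cannot be seen.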
